A study of Mus musculus with 12 samples.

Results

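A set of 33 genes that encode lysosomal hydrolases, lysosomal membrane proteins and their regulators was followed in bulk RNA-seq profiles of 12 mouse melanoma tumors. The genes were chosen by name from a list of known lysosomal genes, with earlier results of these data known. All 33 were found among the 55487 gene identifiers of the count table and among the 16225 genes with enough counts to test. The set holds 8 cysteine cathepsins, 3 other proteases, 9 glycan-degrading enzymes, 5 genes of lipid handling, 6 membrane proteins and 2 regulators. In 6 tumors, the Arf6-null group, the genotype was BrafCA with Cdkn2a f/f and Arf6 f/f, and the titles call Arf6 null. The other 6 tumors, the wild-type group, carried BrafCA and Cdkn2a f/f with no Arf6 allele listed, so wild type refers to Arf6 alone and both groups share the Braf and Cdkn2a alleles. The labels do not give the Cre driver, the age of the animals or whether each tumor came from its own animal. The p-values therefore measure only how much these tumors vary, which may be technical.

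Lysosomes are acidic organelles in which cathepsins cut proteins, glycosidases and sulfatases remove sugars and sulfate from glycans and glycolipids, and lipases and lipid transfer proteins break down and export lipids. Newly made hydrolases reach the lysosome by way of the Golgi and endosomes, largely through mannose 6-phosphate receptors, and a vacuolar ATPase pumps in protons. TFEB, a helix-loop-helix factor held in the cytoplasm by mTORC1 signalling, binds E-boxes in promoters of many lysosomal genes. ARF6 is a small GTPase of traffic between the plasma membrane and endosomes. Macrophages carry many lysosomes, and cathepsins of macrophages, fibroblasts and tumor cells are all found in tumors.

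Arf6 checked the labels: it averaged 18.3 ± 3.73 CPM in Arf6-null tumors and 111 ± 24.9 CPM in wild-type tumors (SD, n = 6 each), where CPM are counts scaled to a common library total. Totals ran from 21007954 to 45688253 counts in the Arf6-null and from 22211738 to 30326419 in the wild-type libraries. Library numbers in the titles formed 1 run per genotype, so anything that changed with library number cannot be told apart from genotype. Of 7 melanocyte markers fixed as a check of the tissue, Mlana had 0 counts in every library and Tyr, Tyrp1 and Dct had at most 2. Pmel had 21 to 50 counts in Arf6-null and 10 to 39 in wild-type libraries, Sox10 1 to 22 and 0 to 33, and Mitf 271 to 1239 counts in Arf6-null and 238 to 713 in wild-type libraries. Of these 7 markers 4 were thus at or near 0. Y-linked genes were at a mean log2 CPM of 4.51 to 5.67 in 5 Arf6-null tumors and -2.74 in replicate 6, against 5.53 and 5.81 in wild-type replicates 2 and 4, 2.36 in replicate 1 and -3.96 to -3.08 in replicates 3, 5 and 6, so Y-linked expression was not balanced between the genotypes. Gla and Lamp2 are X-linked, and the part of sex in their values was not tested apart from the Y-linked score as a covariate, with which they were at 0.80 and -0.19 on the log2 scale. The mean log2 CPM of 12 skeletal muscle markers was -0.89 to 2.23 in Arf6-null tumors, against 6.84 to 7.5 in wild-type replicates 3, 4 and 5, which stood apart, and 0.92 to 3.53 in the other wild-type tumors. In bulk tumors, fewer cells of a type and less RNA per cell cannot be told apart.

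The lysosomal genes differed widely in level. The 33 genes together took 1.78% to 2.11% of all counts in Arf6-null libraries (median 1.86%) and 1.12% to 1.88% in wild-type libraries (median 1.54%). Ctsl, Ctsb and Psap alone held 50.5% of these counts. Levels of different genes were compared per length, in TPM over the union of exons, means over 6 tumors a genotype. Psap, which encodes the precursor of the saposins, activators of sphingolipid hydrolases, led with 3184 ± 745 TPM in Arf6-null and 2302 ± 526 TPM in wild-type tumors. The endopeptidase genes Ctsl, at 2004 ± 646 and 1170 ± 520 TPM, and Ctsb, at 1734 ± 116 and 1275 ± 298 TPM in Arf6-null and wild-type tumors, came next in the mean over all tumors, and their spreads overlap with each other. In wild-type tumors alone Laptm4a, at 1381 TPM, and Ctss, at 1322 TPM, had higher means than both, within their spread. At the low end stood Mcoln1, the lysosomal cation channel, with 17.4 ± 3.17 and 20.5 ± 3.19 TPM in Arf6-null and wild-type tumors, then Galc, with 3.37 ± 0.780 and 7.10 ± 1.28 TPM, and Tfeb, with 3.13 ± 0.656 and 6.05 ± 1.57 TPM. Galc and Tfeb did not differ from each other beyond their spread. The union of exons includes long forms. Levels were also taken per length of the longest transcript tagged as principal, or the longest coding one where none was tagged. The mean over 12 tumors was then 14.0 instead of 5.24 TPM for Galc. For the tetraspanin gene Cd63 it was 1675 instead of 734 TPM, above Ctsb at 1321 and Ctsl at 1149 TPM. That transcript held 6168 of the 6489 exonic bases of Ctsl and 1109 of the 3682 of Cd63. The order of these 2 genes thus depends on the length chosen. Tfeb was still the lowest gene, at 7.65 TPM.

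**Figure D1:**
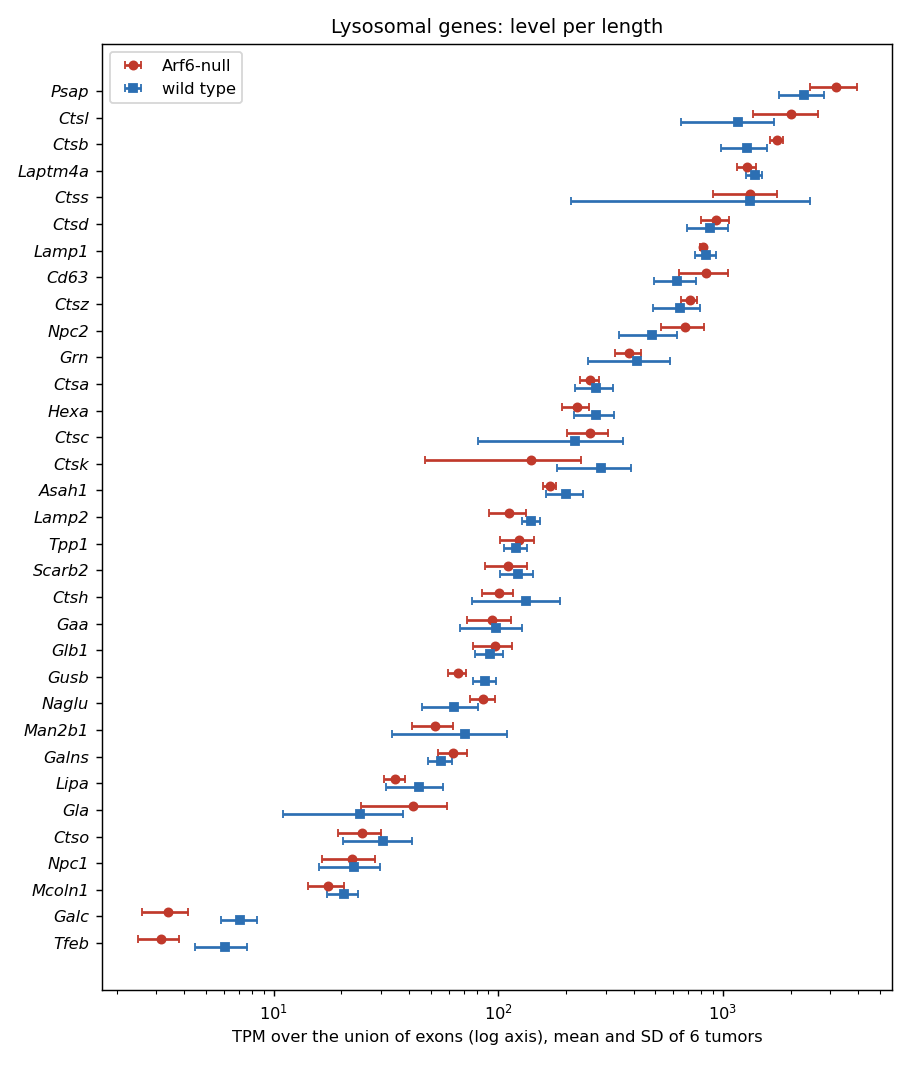
Level per length of the 33 lysosomal genes, ordered by their mean over 12 tumors. The x axis is TPM over the union of exons on a log axis, red circles are the mean of 6 Arf6-null tumors, blue squares that of 6 wild-type tumors, and bars are SDs. Psap, Ctsl and Ctsb stand at the top and Galc and Tfeb at the bottom.

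Promoter windows of 250 bases before to 50 bases after the annotated start were available for 28 of the 33 genes from RefSeq (build GRCm38.p6). They were searched for the E-box CACGTG, for the longer form TCACGTGA, and for the full CLEAR palindrome, which is that form preceded by G and followed by C and through which TFEB is known to act. Each letter string reads the same on both strands, and the longer strings contain the shorter. Some genes had more than 1 window, and a gene was counted if any of its windows held the string. CACGTG occurred in 9 of 28 genes (32.1%), in Ctsl, Ctsa, Ctsd, Gaa, Gla, Glb1, Naglu, Lamp1 and Mcoln1, against 8.09% of all 27025 genes with a window. TCACGTGA occurred in 4 of 28 (14.3%), against 1.12% of all genes. The full CLEAR palindrome occurred in 0 of 28, against 0.37% of all genes. These counts describe letters in the windows and were not tested. The windows with TCACGTGA and that of Lamp1, which holds 4 copies of CACGTG within 61 bases before the start, are printed because they carry this pattern, 5′ to 3′ on the gene's strand, with capitals marking the motif.

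Ctsa (chr2:164833523-164833822, plus strand): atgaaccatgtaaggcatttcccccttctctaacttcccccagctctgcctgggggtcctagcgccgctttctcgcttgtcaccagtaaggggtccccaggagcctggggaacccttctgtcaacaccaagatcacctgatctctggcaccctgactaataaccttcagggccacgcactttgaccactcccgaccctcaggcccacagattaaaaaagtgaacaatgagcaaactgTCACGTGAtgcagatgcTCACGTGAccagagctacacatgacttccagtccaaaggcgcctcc

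Ctsd (chr7:142387778-142388077, minus strand): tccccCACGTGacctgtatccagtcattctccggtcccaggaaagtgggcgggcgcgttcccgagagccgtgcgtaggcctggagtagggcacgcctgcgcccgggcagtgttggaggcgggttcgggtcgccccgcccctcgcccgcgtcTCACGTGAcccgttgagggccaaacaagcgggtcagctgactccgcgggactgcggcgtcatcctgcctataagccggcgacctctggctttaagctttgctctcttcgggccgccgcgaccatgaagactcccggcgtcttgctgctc

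Gla (chrX:134600956-134601255, minus strand): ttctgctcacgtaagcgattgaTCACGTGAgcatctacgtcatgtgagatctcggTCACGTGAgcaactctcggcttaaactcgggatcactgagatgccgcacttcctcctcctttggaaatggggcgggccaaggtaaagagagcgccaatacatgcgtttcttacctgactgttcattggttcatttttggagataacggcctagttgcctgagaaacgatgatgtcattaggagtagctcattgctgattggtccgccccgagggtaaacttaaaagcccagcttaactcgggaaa

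Mcoln1 (chr8:3500269-3500568, plus strand): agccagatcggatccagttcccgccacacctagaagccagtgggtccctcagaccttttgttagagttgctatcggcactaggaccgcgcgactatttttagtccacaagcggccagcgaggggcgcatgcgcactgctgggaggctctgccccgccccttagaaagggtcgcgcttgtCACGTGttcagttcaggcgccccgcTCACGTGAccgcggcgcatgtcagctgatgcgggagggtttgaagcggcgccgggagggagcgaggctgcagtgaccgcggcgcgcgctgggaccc

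Lamp1 (chr8:13158911-13159210, plus strand): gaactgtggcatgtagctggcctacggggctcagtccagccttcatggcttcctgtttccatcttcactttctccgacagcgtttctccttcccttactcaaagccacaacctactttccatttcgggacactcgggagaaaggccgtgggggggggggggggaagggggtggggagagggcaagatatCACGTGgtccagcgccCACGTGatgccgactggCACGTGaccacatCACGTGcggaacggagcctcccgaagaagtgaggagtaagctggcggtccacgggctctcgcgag

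The pair of TCACGTGA strings of Ctsa begins 13 bases before and 4 bases after the start of the printed window's transcript. The other window of Ctsa, chr2:164832622-164832921, holds no CACGTG. The pair of Gla begins 228 and 195 bases before its start. Ctsa, which encodes the protective carboxypeptidase cathepsin A, Ctsd, which encodes the aspartic protease cathepsin D, Gla and Mcoln1 had log2 fold changes of 0.05, 0.23, 0.90 and -0.094 between Arf6-null and wild-type tumors, none of which passed the test. No string of these 3 kinds was found in the windows of Galc, Tfeb or Psap.

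The comparison of Arf6-null with wild-type tumors asks how the lysosomal genes differed once Arf6 was lost. Of the 33 genes, 1 fell, Galc, and 0 rose at an adjusted p under 0.05 in edgeR's quasi-likelihood test with Benjamini-Hochberg adjustment over all genes. Among all genes tested 1.15% passed, 0.586% higher and 0.561% lower. DESeq2 called 5 members, 3 higher and 2 lower, against 11.0% of all genes, 4.8% higher and 6.17% lower. Limma-voom called 4, 2 higher and 2 lower, against 5.74% of all genes, 2.98% higher and 2.76% lower, and so did edgeR at an adjusted p under 0.1, against 8.38%, 3.95% higher and 4.43% lower. At an unadjusted p under 0.05, 11 members passed (33.3%, against 23.4% of all genes), 8 higher and 3 lower, which is 24.2% and 9.09% of the 33, against 11.0% and 12.4% of all genes. The members were chosen with earlier results of these data known, so these shares are a description. The median log2 fold change was 0.080 over the members, and -0.027 over all genes. It was positive for 20 members and negative for 13, against 47.2% of all genes positive. Without the 3 muscle-rich wild-type libraries the median was 0.009, with 18 members positive, and it was 0.001, with 17 positive, once the muscle score entered the fit. Of the 11 members with an unadjusted p under 0.05, Ctsl, Cd63, Galns and Gla had a p over it without those libraries, with log2 fold changes of 0.66, 0.35, 0.25 and 0.83 (edgeR unadjusted p = 0.122, 0.165, 0.0930 and 0.0608). In 0 of the 33 genes were the ranges of the genotypes fully apart, against 2.36% of all genes. The plot of fold changes by role shows these values.

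**Figure D2:**
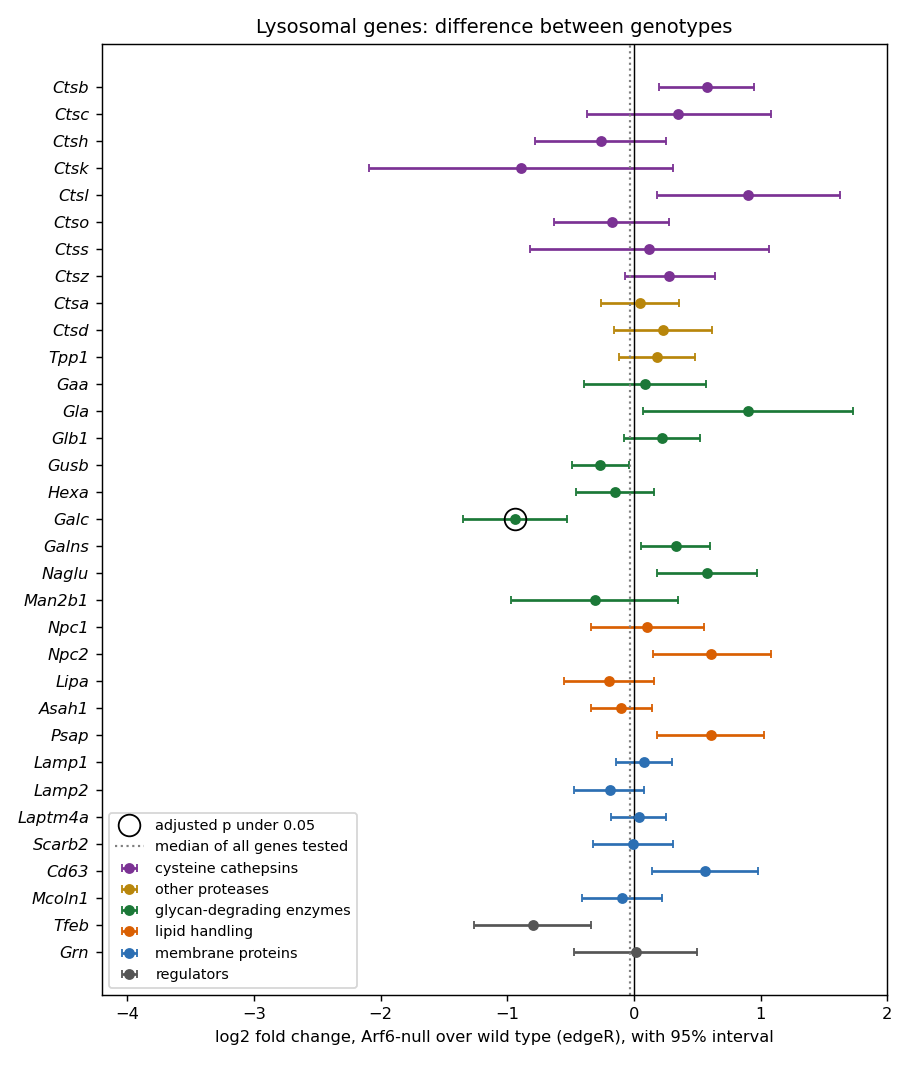
Log2 fold changes of the 33 lysosomal genes, Arf6-null over wild type, from edgeR, with 95% intervals, coloured by role. The ringed point, Galc at -0.94, is the single gene past the adjusted threshold, and the dotted line is the median of all genes tested, -0.027.

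Galc encodes galactosylceramidase, which removes galactose from galactosylceramide and psychosine, and its loss causes Krabbe disease. In GRCm38 it spans bases 98202294 to 98259459 of chromosome 12, minus strand. Its lowest, median and highest levels were 10.4, 16.3 and 20.6 CPM in Arf6-null tumors, against 20.1, 33.4 and 38.0 CPM in wild-type tumors. All 6 Arf6-null tumors lay below the wild-type median and 5 of them below the lowest wild-type tumor, replicate 3. The log2 fold change was -0.94 (SE 0.19, 95% interval -1.35 to -0.53, edgeR adjusted p = 0.0392). The sign was the same in every leave-one-out fit, from -1.04 to -0.84. The call was lost without Arf6-null replicate 1, 2, 3 or 4 or wild-type replicate 1, 4 or 6, with edgeR adjusted p from 0.0652 to 0.0907. Without the 3 muscle-rich wild-type libraries the log2 fold change was -1.11 (edgeR adjusted p = 0.0759). Gm47439, which overlaps 400 of its exonic bases on the other strand, was at 0.0799 CPM in Arf6-null and 0.0907 CPM in wild-type tumors.

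Galc was compared with fibroblast markers. Of 14 such markers, 13 had negative log2 fold changes, 3 of them with an unadjusted p under 0.05, and their summed level ran from 2996 to 18539 CPM in Arf6-null tumors and from 11514 to 30248 CPM in wild-type tumors. Across the 12 tumors, Galc followed the fibroblast score, the mean log2 CPM of these markers, with Pearson r = 0.79 (permutation p = 0.00138, adjusted 0.0304 over 66 pairs of member and score) and Spearman rho = 0.79 (permutation p = 0.00339, adjusted 0.0447). Without the 2 tumors farthest from the median score, Arf6-null replicate 4 and wild-type replicate 1, r was 0.56 (permutation p = 0.0967) and rho 0.64 (permutation p = 0.0550), which did not pass. The permutations did not keep the genotypes apart, so a difference between genotypes in both values enters these p-values. This holds for every correlation over pooled genotypes below. Within genotypes r was 0.93 among Arf6-null tumors (exact permutation p = 0.0250, n = 6) and 0.22 among wild-type tumors (exact permutation p = 0.713, n = 6), and the difference between them was not tested. Other markers were also lower in Arf6-null tumors at an unadjusted p under 0.05, namely 12 of 12 of skeletal muscle, 5 of 5 of mast cells, 4 of 6 of endothelium and 3 of 8 of dendritic cells, and their part in the results was not tested apart from the muscle score. The fibroblast score as a covariate was an alternative added after seeing the data. That fit called 0 members, against 0.0493% of all genes. In it the log2 fold change of Galc was -0.66 (edgeR unadjusted p = 0.00549, adjusted p = 0.312).

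The other glycan-degrading enzymes went in both directions and none passed in edgeR. Naglu, which removes N-acetylglucosamine from heparan sulfate, had 62.5, 75.0 and 88.9 CPM as its lowest, median and highest level in Arf6-null tumors, against 33.4, 49.5 and 68.3 CPM in wild-type tumors. Arf6-null replicate 3 alone lay within the wild-type range, below wild-type replicates 5 and 6, which gave a log2 difference of 0.58 (SE 0.18, edgeR adjusted p = 0.0972), and DESeq2 and limma-voom called the gene (adjusted p = 0.0424 and 0.0413). Gla, the X-linked alpha-galactosidase that is deficient in Fabry disease, had 23.8, 40.1 and 72.6 CPM in Arf6-null tumors, against 11.7, 20.1 and 44.0 CPM in wild-type tumors. Its genotypes overlapped broadly, and 3 Arf6-null tumors lay above every wild-type tumor (log2 fold change 0.90, SE 0.38, edgeR adjusted p = 0.181). Galns, the sulfatase that acts on keratan sulfate, was at 43.8, 56.5 and 63.4 CPM in Arf6-null tumors and at 34.0, 46 and 51.1 CPM in wild-type tumors (log2 fold change 0.33, SE 0.13, edgeR adjusted p = 0.147). Gusb, beta-glucuronidase, was at 85.5, 101 and 107 CPM in Arf6-null tumors and at 99.9, 118 and 138 CPM in wild-type tumors (log2 fold change -0.27, SE 0.10, edgeR adjusted p = 0.148). These 4 genes had an unadjusted p under 0.05. Glb1, beta-galactosidase, Gaa, the acid alpha-glucosidase of glycogen, Hexa, the alpha subunit of beta-hexosaminidase, and Man2b1, lysosomal alpha-mannosidase, had log2 fold changes of 0.22, 0.088, -0.15 and -0.31, with 95% intervals that all include 0.

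Among the proteases, Ctsb and Ctsl had the largest positive differences, which did not pass in edgeR. Ctsb was at 3059, 3489 and 3771 CPM as lowest, median and highest level in Arf6-null tumors, against 1506, 2386 and 3078 CPM in wild-type tumors. Arf6-null replicate 6 lay within the wild-type range, just under wild-type replicate 5, and the other 5 lay above it (log2 difference 0.58, SE 0.17, edgeR adjusted p = 0.0840), and DESeq2 and limma-voom called the gene (adjusted p = 0.0227 and 0.0346). The SD was 273 CPM in Arf6-null and 622 CPM in wild-type tumors (n = 6 each). Ctsl was at 2492, 4479 and 6500.0 CPM in Arf6-null tumors, against 1072, 2250.5 and 3962 CPM in wild-type tumors (log2 fold change 0.90, SE 0.33, edgeR adjusted p = 0.137). Arf6-null replicates 2 and 5 lay within the wild-type range. With the muscle score as a covariate Ctsb and Ctsl were at 0.42 and 0.44 on the log2 scale (edgeR unadjusted p = 0.0892 and 0.303). With the fibroblast score they were at 0.44 and 0.88 (edgeR unadjusted p = 0.0556 and 0.0595). Part of the exons of Ctsb, 774 bases, overlap Fdft1 on the other strand, which was at 59.9 CPM in Arf6-null and 40.3 CPM in wild-type tumors, far below Ctsb. On the same strand, Ctsd shares 808 of its 2351 exonic bases with Gm49369, at 0.0223 CPM in Arf6-null and 0.0187 CPM in wild-type tumors. Ctsl shares 395 of 6489 with Gm49230, which was at 0 CPM. The effect of these overlaps on the levels of Ctsd and Ctsl was not tested.

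The other cysteine cathepsins did not pass in edgeR, DESeq2 or limma-voom. With the macrophage score as a covariate Ctss, Ctsc and Ctsz had log2 fold changes of 0.79, 0.67 and 0.43 (edgeR unadjusted p = 0.0150, 0.0335 and 0.00714, adjusted p = 0.131, 0.182 and 0.101), against 0.12, 0.35 and 0.28 without it. With the fibroblast score these 3 were at -0.33, 0.16 and 0.20 (edgeR unadjusted p = 0.505, 0.701 and 0.355). With the muscle score they were at 0.74, 0.85 and 0.19 (edgeR unadjusted p = 0.202, 0.0703 and 0.404). Ctsc was at 0.62 without the muscle-rich libraries (edgeR unadjusted p = 0.0266, adjusted p = 0.272). Ctsz, a carboxypeptidase, averaged 338 ± 26.5 CPM in Arf6-null and 278 ± 72.2 CPM in wild-type tumors. Ctsc, the dipeptidyl peptidase that activates granule serine proteases, averaged 489 ± 92.9 CPM in Arf6-null and 383 ± 246 CPM in wild-type tumors. Ctss, which cleaves the invariant chain in antigen-presenting cells, averaged 591 ± 189 CPM in Arf6-null and 543 ± 461 CPM in wild-type tumors, with wild-type replicate 5 the highest of all at 1441 CPM. Its 95% interval, from -0.82 to 1.07 on the log2 scale, is among the widest of the members. Ctsh, an aminopeptidase, averaged 149 ± 23.8 and 179 ± 77.7 CPM in Arf6-null and wild-type tumors, and Ctso 41.7 ± 9.12 and 47.0 ± 15.9 CPM. Ctsk, the collagen-degrading cathepsin of osteoclasts and fibroblasts, averaged 70.4 ± 46.9 CPM in Arf6-null and 131 ± 49.96 CPM in wild-type tumors (log2 fold change -0.89, SE 0.55, edgeR adjusted p = 0.350), with a low of 7.83 CPM in Arf6-null replicate 4, the tumor with the lowest fibroblast score. The 3 proteases outside the cysteine family, Ctsa, Ctsd and Tpp1, the tripeptidyl peptidase, had log2 fold changes of 0.05, 0.23 and 0.18, with 95% intervals from -0.26 to 0.36, from -0.16 to 0.62 and from -0.12 to 0.48.

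**Figure D3:**
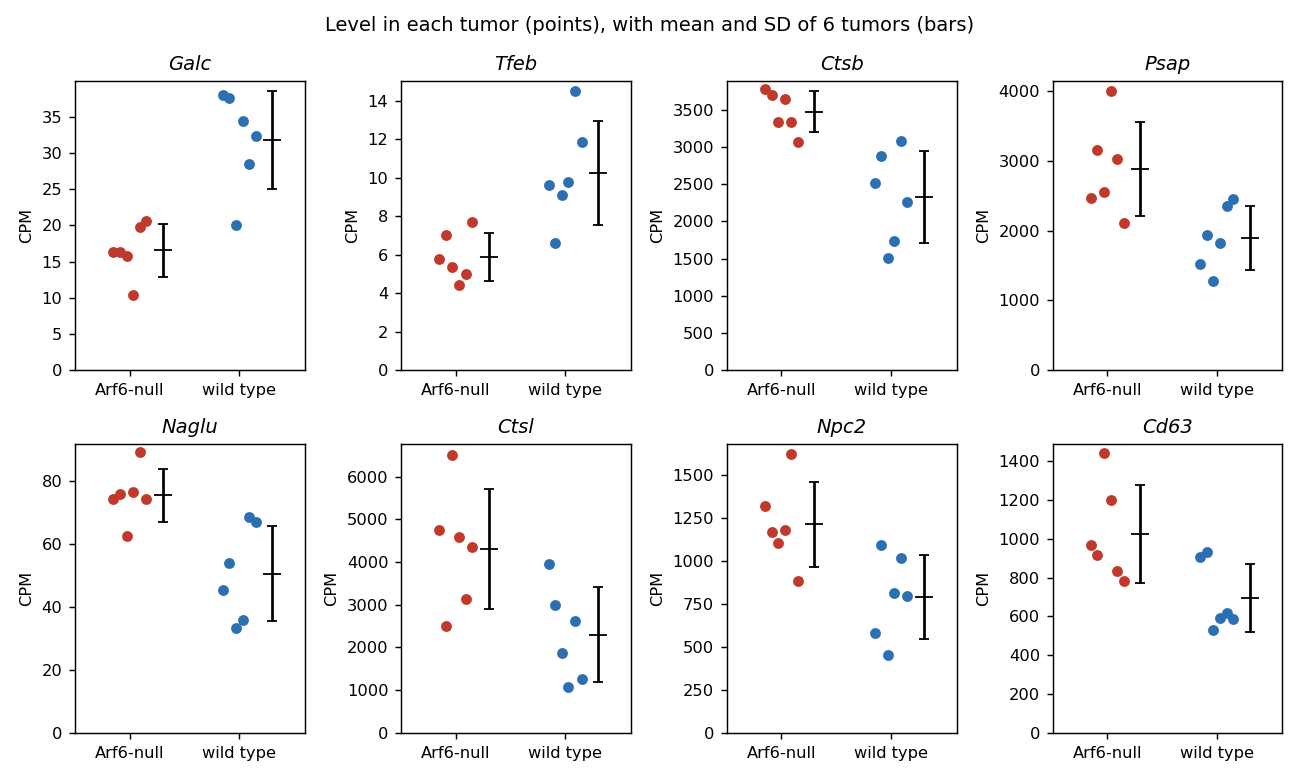
CPM in each tumor for 8 lysosomal genes, Galc, Tfeb and 6 with a positive difference. Red points are Arf6-null and blue points wild-type tumors, and bars give the mean and SD of 6 tumors. The groups touch or overlap in every panel, with 5 of 6 Arf6-null tumors below all wild-type tumors for Galc and 5 of 6 above them for Ctsb, Psap, Naglu and Npc2.

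In lipid handling, Psap and Npc2 had positive differences that did not pass in edgeR. Psap was at 2106, 2793 and 4011 CPM as lowest, median and highest level in Arf6-null tumors, against 1283, 1880.3 and 2456 CPM in wild-type tumors. Arf6-null replicate 6 was the one inside the wild-type range, which gave a log2 difference of 0.61 (SE 0.19, edgeR adjusted p = 0.101), and DESeq2 called the gene (adjusted p = 0.0354). With the muscle and fibroblast scores as covariates the log2 fold change of Psap was 0.70 and 0.31 (edgeR unadjusted p = 0.0223 and 0.175). Npc2, the soluble cholesterol carrier of the lysosomal lumen, was at 881, 1174 and 1621 CPM in Arf6-null tumors, against 455, 804 and 1089 CPM in wild-type tumors (log2 fold change 0.61, SE 0.22, edgeR adjusted p = 0.122). Here too Arf6-null replicate 6 alone lay within the wild-type range. Its partner in the membrane, Npc1, averaged 82.7 ± 20.2 CPM in Arf6-null and 77.0 ± 23.3 CPM in wild-type tumors. Lipa, the acid lipase of cholesteryl esters and triglycerides, averaged 77.9 ± 9.86 and 89.2 ± 24.5 CPM in Arf6-null and wild-type tumors, and Asah1, acid ceramidase, 189 ± 11.7 and 203 ± 35.7 CPM. Exons of Npc1 share 511 bases with Rmc1 on the other strand, whose mean of 50.3 CPM in Arf6-null and 42.5 CPM in wild-type tumors is of a similar order, so reads of the pair cannot be told apart where they overlap unless strand was used.

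Among membrane proteins, Cd63 had the largest difference, which did not pass in edgeR. Cd63, a tetraspanin of late endosomes and exosomes, was at 785, 942 and 1444 CPM as lowest, median and highest level in Arf6-null tumors, against 533, 604 and 934 CPM in wild-type tumors (log2 difference 0.56, SE 0.19, edgeR adjusted p = 0.119). Wild-type replicates 1 and 2 lay inside the Arf6-null range and the other 4 wild-type tumors below it. With the muscle and fibroblast scores as covariates the log2 fold change of Cd63 was 0.25 and 0.43 (edgeR unadjusted p = 0.275 and 0.112). Lamp1, the most abundant glycoprotein of the lysosomal membrane, was at 717 ± 17.6 CPM in Arf6-null tumors and 678 ± 94.9 CPM in wild-type tumors, a log2 fold change of 0.080 with a 95% interval from -0.14 to 0.30. Lamp2, which serves chaperone-mediated autophagy through one of its isoforms, had a log2 fold change of -0.19 (interval -0.47 to 0.08). Laptm4a, a transmembrane protein of late endosomes and lysosomes, and Scarb2, the receptor that carries beta-glucocerebrosidase to lysosomes, had log2 fold changes of 0.039 (interval -0.18 to 0.25) and -0.005 (interval -0.32 to 0.31), and Mcoln1 one of -0.094 (interval -0.41 to 0.22). The intervals of these 5 genes all lie between -0.47 and 0.31.

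Of the regulators, Tfeb was at 4.42, 5.58 and 7.71 CPM as lowest, median and highest level in Arf6-null tumors, against 6.62, 9.69 and 14.5 CPM in wild-type tumors. All Arf6-null tumors lay below the wild-type median and 4 of them below every wild-type tumor, and wild-type replicate 2 lay inside the Arf6-null range. The log2 fold change was -0.80 (SE 0.21, 95% interval -1.26 to -0.34), and it missed the threshold at an edgeR adjusted p = 0.0663. It passed without Arf6-null replicate 6 or wild-type replicate 2, and with DESeq2 and limma-voom (adjusted p = 0.00546 and 0.0449). Without the muscle-rich libraries the log2 fold change was -0.66 (edgeR unadjusted p = 0.0308, adjusted p = 0.282). With the muscle, Y-linked and fibroblast scores as covariates it was -0.57, -0.61 and -0.70. The edgeR unadjusted p was 0.0660, 0.0109 and 0.0208, and the adjusted p 0.393, 0.171 and 0.473. Those 3 fits called 0.123%, 0.191% and 0.0493% of all genes. In GRCm38 Tfeb spans bases 47737030 to 47792419 of chromosome 17, plus strand. Grn, the precursor of the granulins, averaged 438 ± 54.6 CPM in Arf6-null and 432 ± 176 CPM in wild-type tumors, a log2 fold change of 0.017 with an interval from -0.47 to 0.50.

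The other 119 genes of the lysosome pathway gave 1 further call among 118 tested, which is 0.847%, against 1.15% of all genes. Without overlap of the genotypes 1 was higher and 1 lower, which is 1.69%, against 2.36% of all genes. The call was a rise of the vacuolar ATPase subunit gene Atp6v1f. It spans bases 29467718 to 29470512 of chromosome 6, and its lowest, median and highest levels were 88.1, 97.3 and 121 CPM in Arf6-null tumors, against 61.2, 70.1 and 79.3 CPM in wild-type tumors. All 6 Arf6-null tumors lay above all 6 wild-type tumors (log2 fold change 0.53 with an SE of 0.096, edgeR adjusted p = 0.0292). The call was lost without Arf6-null replicate 1, 2 or 4 or wild-type replicate 1, 3, 4 or 6, with edgeR adjusted p from 0.0600 to 0.0710, and without the 3 muscle-rich libraries (edgeR adjusted p = 0.126). Of 18 vacuolar ATPase genes, 15 had a positive log2 fold change, with a median of 0.15, and 7 had an unadjusted p under 0.05, all higher, which is 38.9% against 11.0% of all genes. This list too was chosen with earlier results of these data known, so the share is a description. The second by p was Atp6v0e2, at 21.2 ± 8.05 CPM in Arf6-null and 8.01 ± 3.38 CPM in wild-type tumors (edgeR adjusted p = 0.0590).

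The other pathway lists had 0 calls by edgeR, and their counts at an unadjusted p under 0.05 stand against 11.0% of all genes higher and 12.4% lower. Of 38 other hydrolases and cofactors, 4 were higher (10.5%) and 6 lower (15.8%), near those shares, with a median of 0.032. Ids, iduronate 2-sulfatase, was lower without overlap of the genotypes, at 42.3 ± 5.05 CPM in Arf6-null and 61.1 ± 9.40 CPM in wild-type tumors (edgeR adjusted p = 0.0521), and Ggh, gamma-glutamyl hydrolase, was at 150 ± 37.4 and 75.7 ± 31.4 CPM (edgeR adjusted p = 0.0772). Of 27 tested membrane proteins and transporters, 2 were higher and 2 lower (7.41% each), with a median of 0.035, and Slc38a9, an amino acid sensor of mTORC1, was at 11.8 ± 1.21 CPM in Arf6-null and 16.5 ± 4.10 CPM in wild-type tumors (edgeR adjusted p = 0.122). Of 18 genes that sort enzymes to lysosomes, 2 were higher (11.1%) and 1 lower (5.56%), with a median of 0.077. The adaptor gene Gga1 was at 101 ± 17.9 CPM in Arf6-null and 77.1 ± 11.1 CPM in wild-type tumors, and Sort1, sortilin, at 6.51 ± 2.69 and 11.8 ± 5.91 CPM (edgeR adjusted p = 0.119 and 0.184). Of 17 TFEB relatives and mTORC1 genes, 4 were higher (23.5%) and 1 lower (5.88%), with a median of 0.14. Zkscan3, described as a repressor of autophagy and lysosomal genes, was at 58.3 ± 5.84 CPM in Arf6-null and 81.1 ± 13.6 CPM in wild-type tumors, and Rptor, the scaffold of mTORC1, at 95.8 ± 39.1 and 59.96 ± 7.49 CPM (edgeR adjusted p = 0.0613 and 0.101). DESeq2 called 9 higher and 3 lower genes over all 119, against 11.0% of all genes in either direction, and limma-voom 8 higher and 2 lower of 118, against 5.74%.

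The tumors of a genotype differed among themselves in these genes. The coefficient of variation was smaller in Arf6-null tumors for 25 of the 33 genes (75.8%), against 57.4% of all genes, and its median over the members was 18.5% in Arf6-null and 26.0% in wild-type tumors, against 23.8% and 25.5% over all genes. In wild type, replicate 3 was the lowest tumor for 17 of the 33 genes and replicate 5 the highest for 14. In the Arf6-null group, replicate 4 was the lowest for 13. The macrophage score, the mean log2 CPM of 18 macrophage markers, ran from 6.25 to 6.80 in Arf6-null tumors, against 5.91 in wild-type replicate 3, the lowest of all, and 7.43 in wild-type replicate 5, the highest. The heat map of all members shows these libraries.

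**Figure D4:**
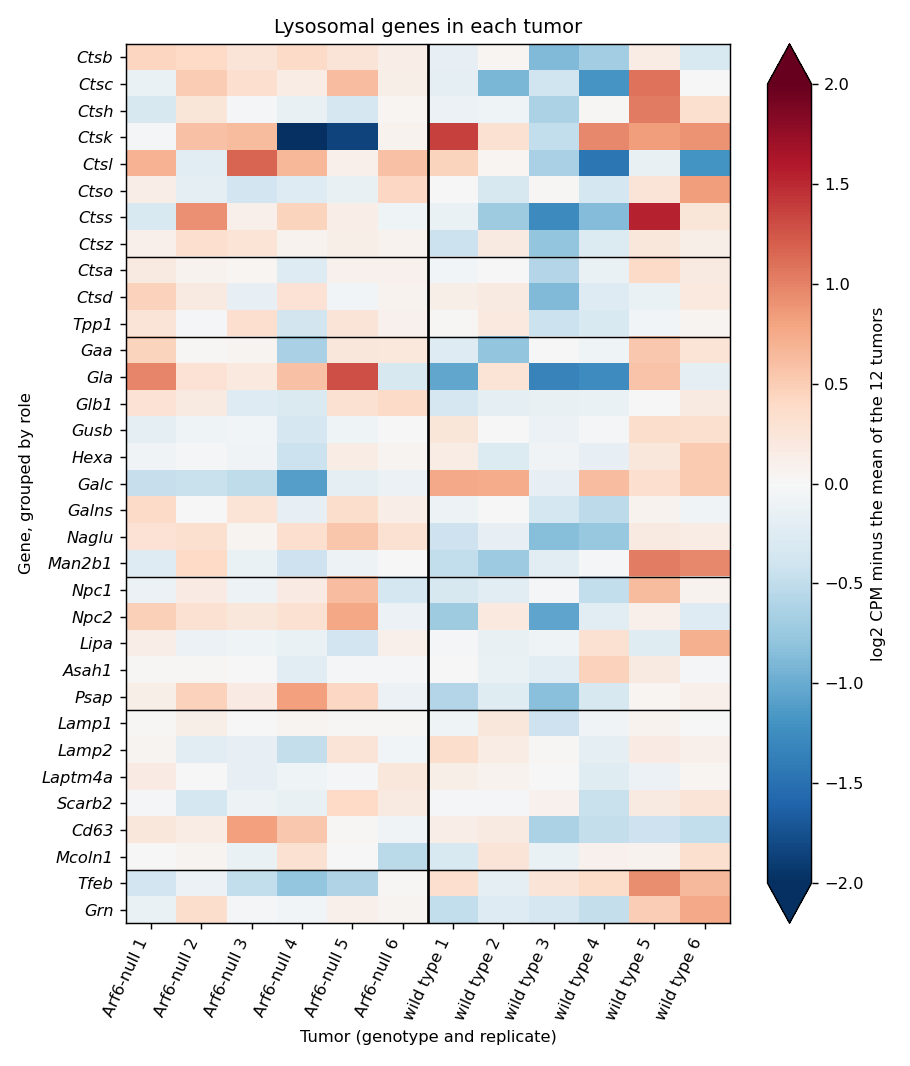
Log2 CPM of the 33 lysosomal genes in each tumor, minus the gene's mean over the 12 tumors. Columns are 6 Arf6-null tumors, left of the black line, and 6 wild-type tumors, and rows are grouped by role in the order of the text's 6 roles. Wild-type replicate 3 is low for 17 genes and wild-type replicate 5 high for 14 within its genotype, and Ctsk is low in Arf6-null replicates 4 and 5.

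Some members followed macrophage markers. Their summed level was 2350.0 to 3596 CPM in Arf6-null tumors and 1804 to 5568 CPM in wild-type tumors, and 14 of the 18 had a negative log2 fold change between genotypes. Ctsh had Pearson r = 0.89 with the macrophage score (permutation p = 9e-05, adjusted 0.00594 over 66 pairs) and Spearman rho = 0.83 (permutation p = 0.00157, adjusted 0.0447), and r = 0.73 without wild-type replicates 3 and 5, the 2 tumors farthest from the median score (permutation p = 0.0173, adjusted 0.199). Gusb had r = 0.85 (permutation p = 0.00054, adjusted 0.0178), rho = 0.87 (permutation p = 0.00056, adjusted 0.0370) and r = 0.89 without those tumors (permutation p = 0.00026, adjusted 0.0172). Within genotypes r was 0.77 among Arf6-null and 0.91 among wild-type tumors for Ctsh, and 0.81 and 0.94 for Gusb (exact permutation p = 0.0931, 0.0194, 0.0306 and 0.00139, n = 6 each). With 6 tumors the smallest p that all 720 orders can give is 0.00139, which adjusts to 0.0917 over 66 pairs for Gusb in wild type, and 0 pairs passed adjustment within a genotype.

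Over the 33 members r with the macrophage score was positive for 30, with a median of 0.31. Without wild-type replicates 3 and 5 it was positive for 19 and negative for 14, with a median of 0.13, so the tally depends on those tumors. Among Arf6-null tumors it was positive for 21, from -0.84 to 0.81, with a median of 0.17, and among wild-type tumors for all 33, from 0.01 to 0.97, with a median of 0.66. The difference between the genotypes in this relation was not tested, and the score spans a wider range in wild type. Ctss had r = 0.67 over all tumors (permutation p = 0.0162, adjusted 0.138), 0.17 among Arf6-null and 0.93 among wild-type tumors, and 0.14 without wild-type replicates 3 and 5. With the macrophage score as a covariate, edgeR called 0 members, against 0.561% of all genes, and 14 had an unadjusted p under 0.05, 11 higher and 3 lower, against 23.03% of all genes in that fit. In that fit the log2 fold changes of Naglu, Ctsb, Galc and Tfeb were 0.76, 0.71, -0.86 and -0.68 (edgeR adjusted p = 0.0531, 0.0656, 0.0654 and 0.0846). With the muscle score as the covariate instead, they were 0.51, 0.42, -1.22 and -0.57 (edgeR adjusted p = 0.394, 0.435, 0.0675 and 0.393).

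Psap ran opposite to the fibroblast score, with r = -0.77 (permutation p = 0.00339, adjusted 0.0559) and rho = -0.81 (permutation p = 0.00208, adjusted 0.0447), r = -0.90 among Arf6-null tumors and -0.23 among wild-type tumors. Without Arf6-null replicate 4 and wild-type replicate 1 its r was -0.54 (permutation p = 0.105). Ctsb had rho = -0.79 with this score (permutation p = 0.00332, adjusted 0.0447) and r = -0.62 (permutation p = 0.0332, adjusted 0.159). Within genotypes the rho of Ctsb was -0.31 among Arf6-null and -0.43 among wild-type tumors (exact permutation p = 0.564 and 0.419, n = 6 each). Ctsk had r = 0.71 (permutation p = 0.0177, adjusted 0.138), which was 0.10 without those 2 tumors. The plot of 6 genes against marker scores shows how far single tumors carry these values.

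**Figure D5:**
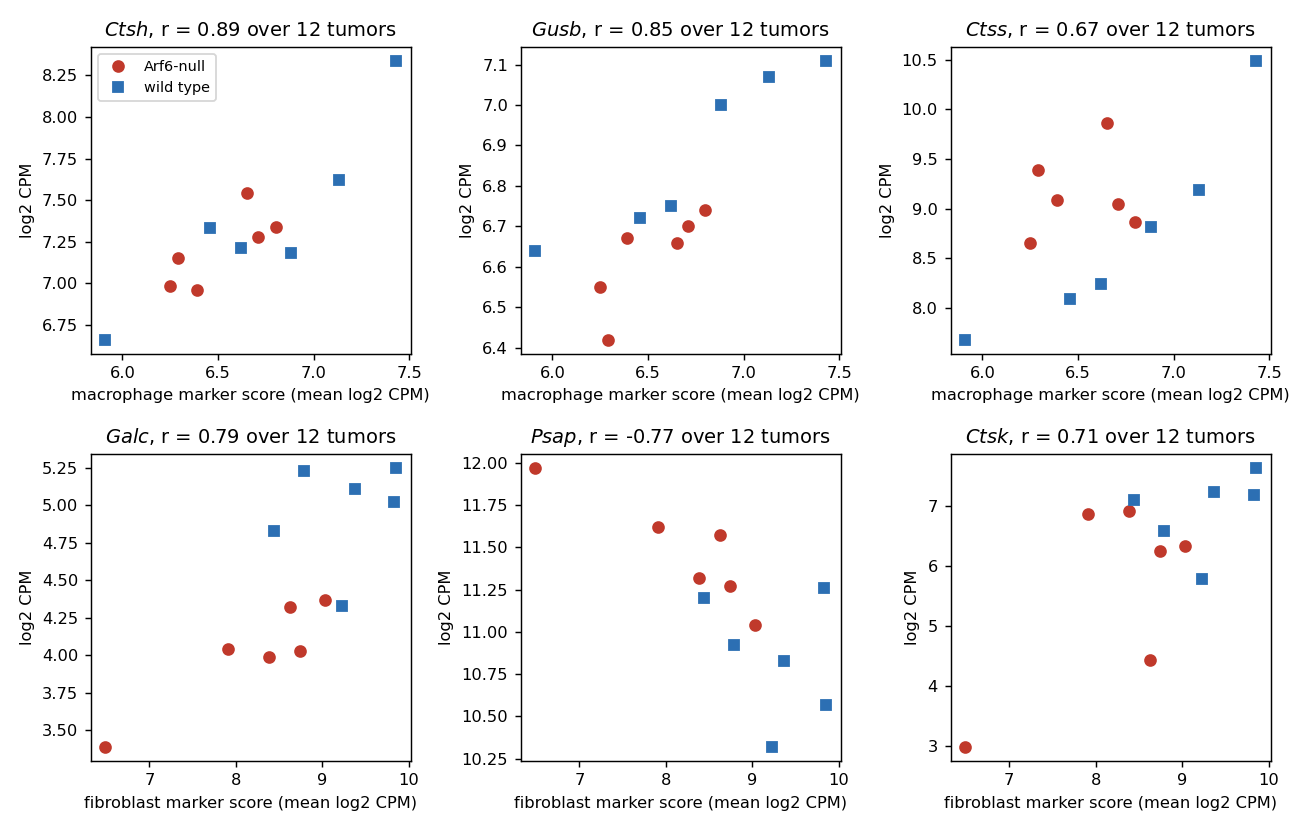
Log2 CPM of 6 lysosomal genes against the macrophage score (top) or the fibroblast score (bottom), each the mean log2 CPM of the markers. Red circles are Arf6-null and blue squares wild-type tumors. Ctsh and Gusb rise with the macrophage score in both genotypes (r = 0.89 and 0.85 over 12 tumors), and the leftmost point of the lower panels is Arf6-null replicate 4.

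Among themselves, after removal of the genotype means, the members had a median Pearson r of 0.30 over 528 pairs, with 13 pairs above 0.8 and 108 below 0. The median was 0.05 among Arf6-null and 0.42 among wild-type tumors, a difference that was not tested. The points share library and composition, so these values are a description. The highest pairs were Ctss with Ctsh, and Grn with Man2b1, each at 0.90, followed by Lamp1 with Ctsz at 0.89 (0.39 among Arf6-null and 0.91 among wild-type tumors) and Galns with Tpp1 at 0.88. Naglu had the highest median r with the other members, 0.56, and Cd63 the lowest, -0.05, and Cd63 and Glb1 were the most opposed pair, at -0.78. Tfeb had a median r of 0.21 with the other members and 0.83 with Man2b1.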

How the data were processed

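Bulk RNA-seq of 12 tumors was used. A Direct-zol kit gave the RNA and TruSeq Stranded mRNA the libraries, per the labels' protocols. The submitters' processing notes name STAR 2.7.3a, featureCounts 1.6.3 and DESeq2 1.26.0 and the build GRCm38 (mm10). The notes name no strand setting, multi-mapping rule or annotation release. The authors deposited raw counts per gene without normalization, for 55487 identifiers, of which 22114 had no count. Groups came from the titles and genotype labels, and columns were matched by library name. No label pairs tumors of the genotypes.

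Symbols came from GENCODE M21 (GRCm38), which named 55141 identifiers. filterByExpr (minimum 10 counts) left 16225 genes with 99.9% of counts. Genotypes were compared with the robust quasi-likelihood test of edgeR 4.0.16 in R 4.3.3 after TMM scaling, adjusted over all genes, threshold 0.05. Log2 CPM used a prior count of 2. Correlations used 100000 permutations, or all 720 for 6 tumors, two-sided. Fold changes divide Arf6-null by wild type. Intervals hold at 95%. The depth of at least 21007954 counts gave every member at least 115 counts in each library. Alternatives used DESeq2 1.42.0, limma 3.58.1, other scalings and filters, covariates and left-out libraries.

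The edgeR step was tested on simulated data shaped like this comparison (16037 genes, 200 of them altered): it found 44% of 2-fold and 82% of 4-fold changes, and 3 of its 129 calls were false. Genes were drawn independently there, without shared differences in composition between tumors. These rates therefore need not hold for the real tumors. The members and lists were chosen with earlier results of these data known. Named genes were all 33 members, Arf6, and of each pathway list the genes past the threshold (at most 6), filled up to 2 by smallest p. A gene that this rule names is not reported here.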

Additional observations from a re-analysis of the deposited data

Results flagged for a closer look

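Among 66 sets of 6 values (33 genes in 2 genotypes), 2 held a tumor far from the others, where chance alone flags about 1 set in 20. Both were Arf6-null replicate 4, the tumor with the lowest fibroblast score. Ctsa, the carboxypeptidase cathepsin A, was at 8.35 on the log2(CPM + 1) scale there. Asah1, acid ceramidase, was at 7.39 on that scale there. The part of sample composition in these 2 values was not tested.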

How the results depend on the processing

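No paired analysis was possible because no label pairs an Arf6-null with a wild-type tumor. The count of lysosomal members called, 1 as reported, was 5 with DESeq2, 4 with limma-voom and 4 at an adjusted p under 0.1. The shares of all genes were 11.0%, 5.74% and 8.38%. The count was 0 with no filter, against 0.381% of all genes. It was 0 with the Y-linked (0.191% of all genes), macrophage (0.561%), skeletal muscle (0.123%) and fibroblast (0.0493%) scores as covariates, the last added after seeing the data. Without the 3 muscle-rich wild-type libraries it was 0, against 0.206%. These fits called few genes of any kind. Leaving out 1 tumor gave 0 to 2. Members with an unadjusted p under 0.05, 11 as reported, were 7 with the Y-linked covariate, against 17.84% of all genes in that fit. They were 2 with the skeletal muscle (13.99% of all genes), 5 with the fibroblast (8.65%) and 14 with the macrophage covariate (23.03%). They were 8 to 13 with 1 tumor left out. Other pathway genes called, 1 as reported, were 2 with upper-quartile scaling (1.29% of all genes) and 2 with a filter of 10 CPM (1.22%). They were 12 with DESeq2, 10 with limma-voom and 10 at the threshold of 0.1. They were 0 with the Y-linked, 0 with the muscle and 0 with the fibroblast covariate, and 0 without the 3 muscle-rich libraries. The shares of all genes called in these fits are those given for the members called. With 1 tumor left out they were 0 to 9 (9 without wild-type replicate 2). The members' median, 0.080 as reported, was 0.18 with the macrophage covariate, 0.001 with the muscle covariate, 0.009 without the muscle-rich libraries, and 0.015 (without wild-type replicate 3) to 0.14 (without wild-type replicate 5) with 1 tumor left out. Members without overlap of the genotypes numbered 0 to 4 with 1 tumor left out, 4 without Arf6-null replicate 6. Leaving out a tumor can only narrow the ranges of every gene. The share of all genes is not given for any count with 1 tumor left out. The calls, the counts at an unadjusted p and the non-overlaps in those fits therefore cannot be judged against it. Of the marker correlations past the adjusted threshold by Pearson's r, 3 as reported (5 by Spearman's rho), 1 passed without the 2 farthest tumors (0 by rho), 0 within Arf6-null and 0 within wild-type tumors.

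Some log2 fold changes that did not pass changed sign. With the macrophage covariate Ctsh was 0.021 and Scarb2 0.031. With the Y-linked covariate Ctso was 0.12, Man2b1 0.063 and Scarb2 0.13. With the fibroblast covariate Ctso was 0.05, Ctss -0.33, Hexa 0.043, Npc1 -0.082 and Scarb2 0.11. With the muscle covariate Ctsa was -0.027, Ctsd -0.073, Tpp1 -0.095, Man2b1 0.15, Asah1 0.001, Lamp1 -0.024 and Laptm4a -0.094. Without the muscle-rich libraries Ctsd was -0.005, Asah1 0.025, Laptm4a -0.039 and Grn -0.043. Upper-quartile scaling gave -0.008 for Laptm4a and -0.035 for Grn, and the 10 CPM filter -0.00045 and -0.032. Scarb2 was 0.004 with DESeq2 and 0.03 with no filter. With 1 tumor left out, Ctsa ran from -0.043 to 0.14, Ctso from -0.29 to 0.022, Ctss from -0.052 to 0.70, Gaa from -0.026 to 0.22, Grn from -0.066 to 0.22, Laptm4a from -0.005 to 0.078, Npc1 from -0.025 to 0.28 and Scarb2 from -0.10 to 0.06. The cause was not tested. Depth limits Tfeb most, with 115 counts in its lowest library.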
